A study of Mus musculus with 26 samples.

Results

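Vascular endothelial cells, which line the lumen of every artery, are recognised by a small group of genes, and 10 of these are described here: Pecam1, Cdh5, Cldn5, Esam, Tie1, Tek, Vwf, Egfl7, Sox17 and Sox18. They were taken from a list of endothelial identity genes by symbol, with earlier results of these data known, and all 10 were found among the 55414 gene identifiers shared by the count tables of 2 arterial beds. All 10 passed the filter on low counts in every comparison. Polyadenylated RNA of 2 kinds of mouse artery was sequenced, the elastic aorta and the small muscular mesenteric arteries that feed the gut, on a C57BL6J background.

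Every mouse carried floxed Sphk1, the gene of sphingosine kinase 1, on both alleles. The control strain, called WTf/f in the labels, was Sphk1f/fTagln-cre-. The deleted strain, SMC KO-Sphk1, was Sphk1f/fTagln-cre+, with Cre recombinase driven by the promoter of Tagln, a smooth muscle gene. Angiotensin II (AngII), a vasoconstrictor peptide, was infused from a subcutaneous minipump at 490 ng/kg/min for 14 days, beginning when the male mice were 12 to 14 weeks old. In each tissue there were 4 libraries from WTf/f sham mice, 4 from WTf/f mice given AngII and 5 from SMC KO-Sphk1 mice given AngII, 26 libraries in all. The labels state neither age nor procedure for the sham mice, and a sham group of the deleted strain was not analysed here, so the deletion is seen only under infusion. The labels do not say whether an aorta and a mesenteric sample came from 1 mouse.

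The products of these genes form a functional series. Pecam1, Cdh5, Cldn5 and Esam encode adhesion proteins of the junctions between endothelial cells. Tie1 and Tek are receptor tyrosine kinases of the angiopoietin pathway, which keeps vessels quiescent. Vwf and Egfl7 encode secreted proteins, and Sox17 and Sox18 are SoxF transcription factors that act in arterial and lymphatic development. The endothelium is a single cell layer, so its RNA makes up a small part of the RNA of a whole artery, and in such bulk samples fewer endothelial cells and less RNA of a gene per endothelial cell cannot be told apart.

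The 13 aortic libraries held 23487946 to 32251097 gene counts and the 13 mesenteric ones 17540532 to 30050073, and 4 mesenteric libraries had more than 10% of records not aligned. The targeted gene separated the genotypes among the 18 libraries of mice given AngII. Sphk1 was at 12.1 to 25.2 CPM (counts-per-million units) in aortas of WTf/f mice given AngII against 1.78 to 3.43 in those of SMC KO-Sphk1 mice, and at 9.51 to 17.3 against 2.81 to 4.62 CPM in mesenteric arteries. It does not check the labels of the sham aortas, which held 3.17 to 6.19 CPM, the lowest within the range of the deleted strain. Genes of gut and pancreas summed to 24.0 to 82950 CPM over the mesenteric libraries, and lymphoid genes reached 595 CPM in mesenteric SMC KO-Sphk1 replicate 3 and 145 in mesenteric WTf/f AngII replicate 1, against at most 76.6 in the others. CPM values here are scaled by TMM, a correction for library composition, over all 26 libraries, and values after ± are SD for CPM and standard errors for log2 fold changes.

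The 10 genes were all more abundant in mesenteric arteries than in the aorta. In sham mice their CPM summed to 4118 ± 148 (SD, n = 4) in mesenteric arteries and 1068 ± 59.3 (n = 4) in the aorta, and no mesenteric library overlapped an aortic one for any of the 10 genes in any of the 3 matched conditions. In the sham comparison 38.4% of 18520 genes tested were called by edgeR (Benjamini-Hochberg adjusted p below 0.05), 20.7% as higher in mesenteric arteries, and 10 of the 10 genes were called higher. The median log2 difference was 2.15 for the 10 genes and 0.02 for all genes tested. Without overlap of the sham groups, 22.3% of 14367 expressed genes (mean log2 CPM of at least 0) were higher in mesenteric arteries. The share was 17.5% in WTf/f mice given AngII and 16.4% in SMC KO-Sphk1 mice given AngII.

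**Figure D1:**
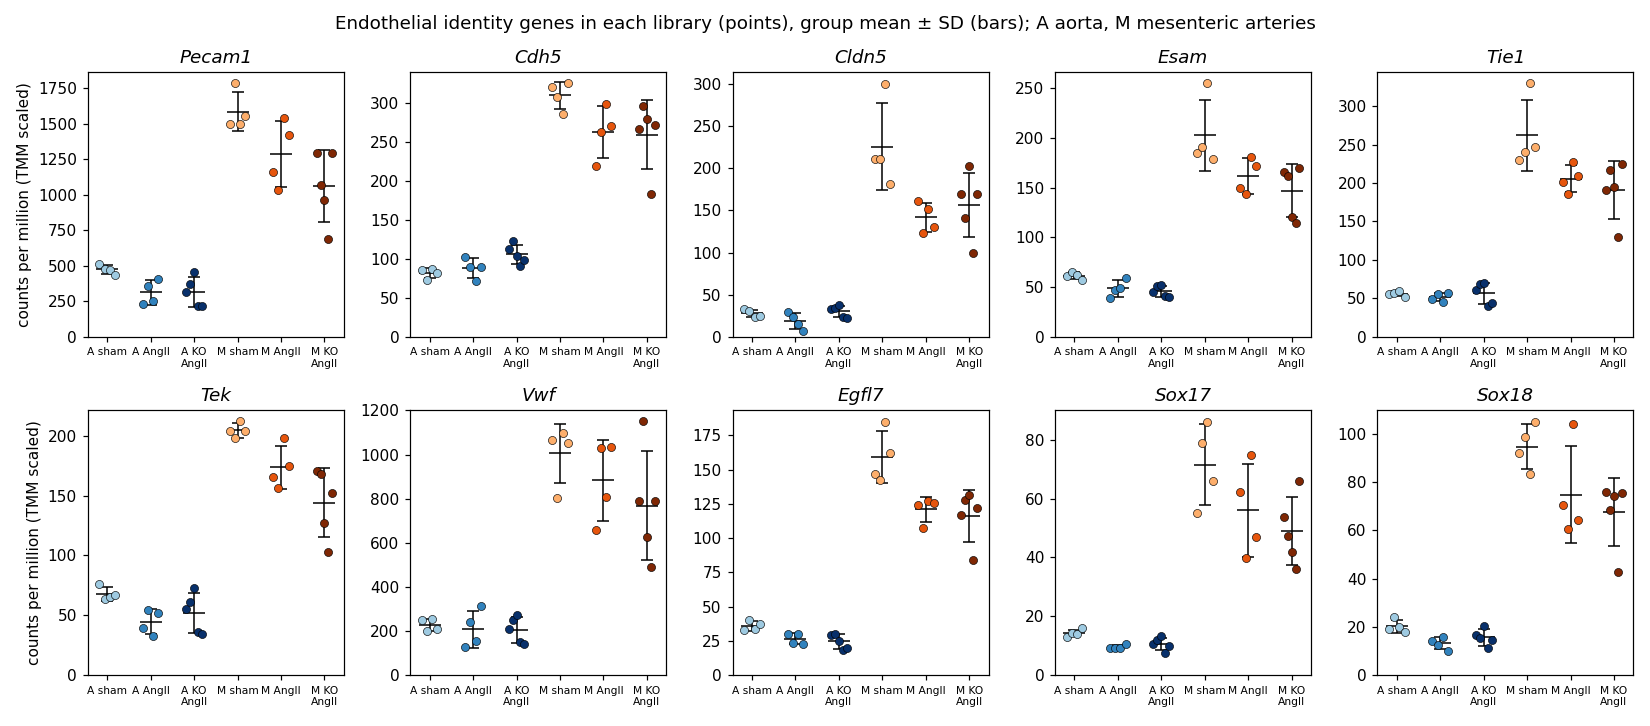
CPM (TMM scaled, linear axis from 0) of each of the 10 genes in each of the 26 libraries (points), with the group mean and SD (bars), A for aorta and M for mesenteric arteries. The mesenteric libraries lie above the aortic libraries for each gene, and the sums of the 10 means are 1068 CPM in aortic and 4118 CPM in mesenteric sham libraries.

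Among the junction genes the difference between tissues was widest for Cldn5, the claudin of endothelial tight junctions (ENSMUSG00000041378, chr16:18776847-18778262, plus strand, GRCm38). The 4 aortic sham libraries held 33.1, 30.2, 23.8 and 24.4 CPM of Cldn5 and the 4 mesenteric sham libraries 211, 211, 300 and 181. The mesenteric level was 8.09-fold higher, a log2 difference of 3.02 ± 0.30 (edgeR, adjusted p = 2.849e-08). The 95% interval began at 2.39, above the point estimate of each of the other 9 genes.

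Cdh5, the VE-cadherin of adherens junctions (ENSMUSG00000031871, chr8:104101625-104144511, plus strand), had a smaller tissue difference. Its sham levels were 85.9, 73.0, 86.7 and 82.3 CPM in the aorta and 319.5, 306.9, 285.6 and 324.8 CPM in mesenteric arteries, 3.77-fold apart (edgeR, adjusted p = 5.088e-11). The spread among sham libraries was small for this gene, 7.63% of the mean in the aorta and 5.63% in mesenteric arteries. Pecam1, the adhesion molecule CD31 that platelets and leukocytes also carry (ENSMUSG00000020717, chr11:106654217-106750628, minus strand), was 3.34-fold higher in mesenteric arteries, and Esam, an immunoglobulin-type adhesion molecule also found on platelets (ENSMUSG00000001946, chr9:37528078-37538319, plus strand), was 3.29-fold higher. The 8 platelet genes summed to 7.67 to 12.5 CPM in mesenteric and 21.8 to 23.8 CPM in aortic sham libraries. Most of these sums was 1 gene, Pf4, with means of 7.38 and 18.6 CPM. Only 4 of the 8 passed the filter on low counts, so the list is a weak gauge of platelets. The part of platelets in the levels of Pecam1 and Esam was not tested.

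The receptor pair differed in size. Tie1, an orphan receptor that modulates its partner (ENSMUSG00000033191, chr4:118471191-118490061, minus strand), was at 230.4, 241, 330.1 and 246.5 CPM in mesenteric and at 55.5, 57.2, 59.7 and 52.0 CPM in aortic sham libraries, 4.67-fold apart. Tek, the angiopoietin receptor Tie2 (ENSMUSG00000006386, chr4:94739289-94874976, plus strand), was 3.01-fold higher in mesenteric arteries, the smallest fold of the 10 genes, at 204.5 ± 6.03 against 67.9 ± 5.66 CPM. Of the other genes of the angiopoietin pathway, 3 of 8 were called higher and 4 of 8 lower in mesenteric arteries. Angpt1, the ligand that activates Tek, was among the higher ones with a log2 difference of 2.93 ± 0.35 (adjusted p = 3.582e-07), as was the receptor phosphatase Ptprb with 1.79 ± 0.15.

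The secreted and nuclear members lay between these. Vwf, the glycoprotein stored in Weibel-Palade bodies (ENSMUSG00000001930, chr6:125546774-125686679, plus strand), was 4.40-fold higher in mesenteric arteries and Egfl7, which hosts the microRNA miR-126 in an intron (ENSMUSG00000026921, chr2:26580014-26593120, plus strand), 4.45-fold. Sox17 (ENSMUSG00000025902, chr1:4490931-4497354, minus strand) was 5.01-fold higher and Sox18 (ENSMUSG00000046470, chr2:181669836-181671640, minus strand) 4.69-fold. Sox17 shares 804 exon bases, 16.8% of its exon length, with Gm37587 on the opposite strand, but that gene held 90 counts over the 26 libraries against 23197 for Sox17. Egfl7 shares 64 exon bases, 1.79% of its exon length, with Agpat2 on the opposite strand. Agpat2 held 50154 counts over the 26 libraries against 53660 for Egfl7. Whether the counting used strand is not stated in the labels, and the effect of these overlaps on the levels was not tested.

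Per kilobase of exon, which allows genes to be compared with each other, Pecam1 stood highest in both tissues, at 76.1 ± 4.93 CPM per kb in aortic and 254 ± 21.9 in mesenteric sham libraries. Next in the aorta came Esam at 21.5 ± 1.30, Cldn5 at 19.7 ± 3.18 and Cdh5 at 19.5 ± 1.49, whose SD intervals overlapped. Tek, Vwf, Sox18, Tie1 and Egfl7 followed from 14.4 down to 9.997, and neighbours in that order had overlapping SD intervals. Sox17 was lowest, at 2.99 ± 0.24 in the aorta and 14.99 ± 2.89 in mesenteric arteries. In mesenteric arteries the second place belonged to Cldn5 alone, at 159 ± 36.3 CPM per kb, above Cdh5 at 73.6 ± 4.14 and Esam at 70.7 ± 12.4, which did not differ beyond their spread.

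The tissue difference remained after infusion. In WTf/f mice given AngII 40.4% of genes were called, 21.3% as higher in mesenteric arteries, and in SMC KO-Sphk1 mice given AngII 47.6%, 26.8% as higher and 20.8% as lower. In each of these 2 comparisons 10 of the 10 genes were called higher, with median log2 differences of 2.06 and 1.83. Cldn5 again had the widest difference, 7.50-fold and 5.18-fold. Cdh5 had the smallest in both, 2.98-fold and 2.45-fold.

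**Figure D2:**
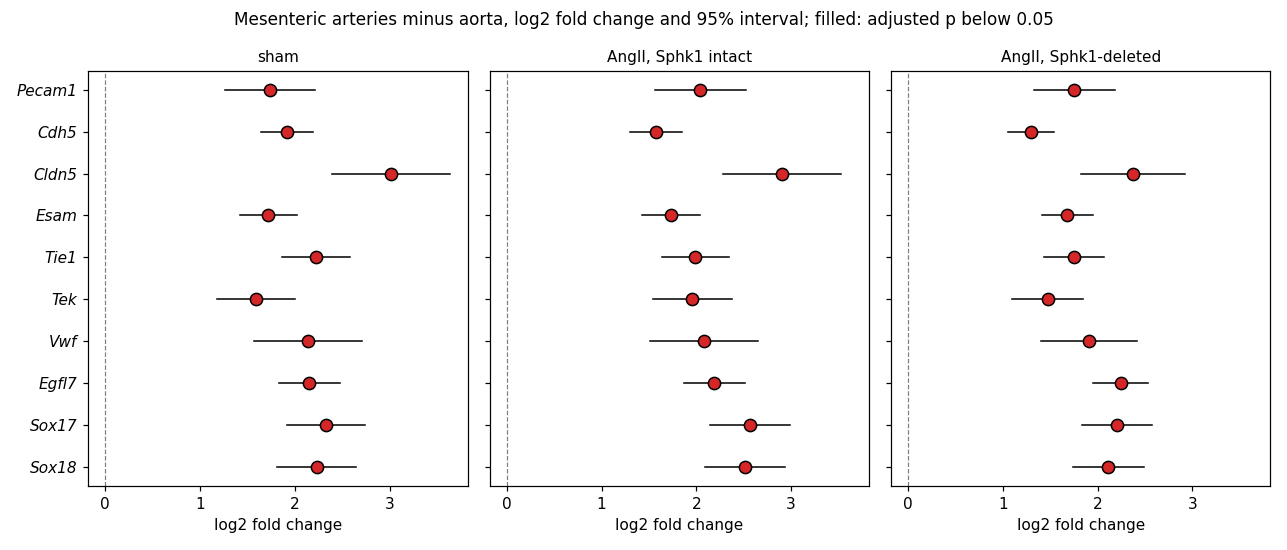
Log2 fold change of mesenteric arteries over aorta for each gene (points, filled where the edgeR adjusted p was below 0.05) with its 95% interval (lines), in sham mice and in mice given AngII with Sphk1 intact or deleted. All points are filled and right of 0, and Cldn5 lies farthest right in each panel.

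Genes that mark endothelium by other routes moved with the 10. Of 20 other endothelial genes 19 were called higher in mesenteric sham libraries and none lower, with a median log2 difference of 2.09, among them the vascular endothelial growth factor receptor Flt1 at 2.01 ± 0.12 and the sphingosine-1-phosphate receptor S1pr1 at 2.17 ± 0.16. Arterial endothelial genes were called higher in 8 of 12, for example the Notch ligand Dll4 at 2.94 ± 0.23, and capillary and venous genes in 8 of 12, for example Plvap at 3.02 ± 0.24. Lymphatic genes were called higher in 6 of 8, with a median of 4.36. Of 10 smooth muscle genes 1 was called higher and 2 lower. Peripheral glial and neural genes were higher in 8 of 8 and gut and pancreas genes in 10 of 10, so the mesenteric samples held RNA of further cell types, whose part in the levels of the 10 genes was not tested. With the mean of the 20 other endothelial genes as a covariate, 0 of the 10 were called higher in any of the 3 tissue comparisons. The mean log2 CPM of that list was at most 5.08 in aortic and at least 5.93 in mesenteric libraries. This covariate alone thus separated the tissues, and the loss of calls allows no conclusion about the 10 genes.

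Upstream sequence is shown for members whose start sites are in the RefSeq promoter table of GRCm38.p6, because all of them moved together between the tissues. The table holds 4 of the 10, Cldn5, Tek, Tie1 and Egfl7, with 6 start sites, and bases that an annotated exon covers are left off; for Tie1 that is most of the window, so none is printed. The coordinates are not those of GRCm39, on which the counting was done. Capitals mark AGGAAG or its reverse complement CTTCCT, the core recognised by many ETS factors.
Cldn5, chr16:18776597-18776846, plus strand: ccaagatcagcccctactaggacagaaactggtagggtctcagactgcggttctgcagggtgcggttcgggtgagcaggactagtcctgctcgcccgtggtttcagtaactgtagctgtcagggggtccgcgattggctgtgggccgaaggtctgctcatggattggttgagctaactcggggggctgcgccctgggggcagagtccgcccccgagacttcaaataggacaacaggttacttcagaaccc
Tek, chr4:94739039-94739288, plus strand: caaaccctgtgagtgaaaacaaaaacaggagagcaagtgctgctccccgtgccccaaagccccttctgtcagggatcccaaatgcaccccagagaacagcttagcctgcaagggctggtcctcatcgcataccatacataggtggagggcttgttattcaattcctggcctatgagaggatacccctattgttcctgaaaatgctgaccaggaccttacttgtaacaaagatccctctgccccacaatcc
Egfl7, chr2:26580833-26581055, plus strand: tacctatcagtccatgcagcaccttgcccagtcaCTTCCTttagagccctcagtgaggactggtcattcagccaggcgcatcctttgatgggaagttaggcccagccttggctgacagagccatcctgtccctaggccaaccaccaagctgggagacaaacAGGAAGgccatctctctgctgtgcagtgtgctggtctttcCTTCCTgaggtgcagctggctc
Egfl7, chr2:26583615-26583863, plus strand: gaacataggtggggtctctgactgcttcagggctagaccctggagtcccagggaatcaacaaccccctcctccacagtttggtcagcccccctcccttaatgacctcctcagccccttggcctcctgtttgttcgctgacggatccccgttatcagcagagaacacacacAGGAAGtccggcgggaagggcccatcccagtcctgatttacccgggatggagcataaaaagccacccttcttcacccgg

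The first Egfl7 window holds 3 ETS cores and the second 1, another Egfl7 window that is not printed holds none, the exon-free bases before Tie1, not printed either, hold 1, and those of Cldn5 and Tek hold none; the Tek window holds 2 matches to ACAAT (reverse complement ATTGT), a core bound by Sox factors. Over the 250 bases before the start, 29.5% of the 32851 promoters in the table hold AGGAAG on either strand and 27.7% hold ACAAT, and no ETS match overlapped an ACAAT match in these windows. These matches are a description of letters, and Cldn5, which differed most between tissues, has neither motif in its window.

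AngII was associated with lower levels of part of the group in the aorta. In WTf/f aortas 25.5% of 16863 genes tested were called between AngII and sham, 10.8% as lower, and 4 of the 10 genes were called lower and none higher: Sox17, Sox18, Esam and Egfl7. The other 6 did not pass the test, and 9 of the 10 had a negative log2 fold change. The median was -0.51 for the 10 genes and 0.00 for all genes tested. For 5 of the 10 every AngII library lay below every sham library, a position that 11.5% of 14367 expressed genes shared.

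Sox17, which supports arterial endothelial identity, had the smallest adjusted p of the 10. It measured 13.1, 14.2, 13.9 and 15.8 CPM in the sham aortas and 9.16, 9.05, 9.05 and 10.4 CPM in the AngII aortas, so that the groups did not overlap. It fell to 65.5% of the sham level, a log2 fold change of -0.61 ± 0.14 (edgeR, adjusted p = 0.004743). Sox18, its SoxF relative, measured 19.2, 23.9, 20.1 and 17.7 CPM in sham and 14.1, 12.4, 15.9 and 10 CPM in AngII aortas, again without overlap. It fell by 0.64 ± 0.17 on the log2 scale (adjusted p = 0.01503).

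Esam measured 61.6, 65.6, 62.7 and 56.7 CPM in sham aortas and 39.3, 47.0, 49.0 and 59.3 CPM in AngII aortas, where only the highest, replicate 4, lay within the sham range. Its log2 fold change was -0.36 ± 0.12 (adjusted p = 0.03557). Egfl7 measured 32.8, 40.0, 33.5 and 36.9 CPM in sham and 30.1, 23.6, 30.0 and 22.3 CPM in AngII aortas. The Egfl7 groups did not overlap, with a log2 fold change of -0.45 ± 0.15 (adjusted p = 0.04667).

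Pecam1 and Tek showed shifts as large as those of the Sox genes but with a wider spread, and neither was called. Pecam1 was at 509.2, 479.8, 470.7 and 434.8 CPM in sham and 227.5, 358.7, 254.8 and 408.5 CPM in AngII aortas, a log2 fold change of -0.61 ± 0.24 (adjusted p = 0.0775). For Tek the sham levels were 76.2, 63.6, 65.3 and 66.6 CPM and the AngII levels 39.5, 54.8, 32.3 and 51.8 CPM, a log2 fold change of -0.62 ± 0.23 (adjusted p = 0.06937). For both genes each AngII library lay below each sham library, and replicates 1 and 3 were the lowest. The spread of the AngII group was 27.4% of its mean for Pecam1, against 6.48% in the sham group.

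Cldn5 varied most among the AngII aortas, which held 29.1, 23.7, 15.6 and 7.21 CPM, a spread of 50.7% of the mean. Replicate 4, lowest for Cldn5, was the highest of its group for Pecam1, Vwf, Esam, Tie1 and Sox17. Vwf was next, with a spread of 40.1%, at 127, 239.8, 155.6 and 311.3 CPM, and Tie1 was at 48.8, 56.2, 45.7 and 56.3 CPM, and all 3 genes overlapped the sham range. Their log2 fold changes were -0.57 ± 0.34 (adjusted p = 0.2465) for Cldn5, -0.15 ± 0.28 (0.7427) for Vwf and -0.13 ± 0.16 (0.5917) for Tie1.

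Cdh5 was the 1 gene of the 10 with a positive value in this comparison, 0.09 ± 0.11 (adjusted p = 0.6021). Its AngII aortas held 102.3, 89.2, 70.9 and 89.7 CPM, of which 3 lay above all 4 sham libraries and 1 below them. The estimate was between 0.01 and 0.18 when single libraries were left out, and -0.03 when libraries were scaled by size alone.

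**Figure D3:**
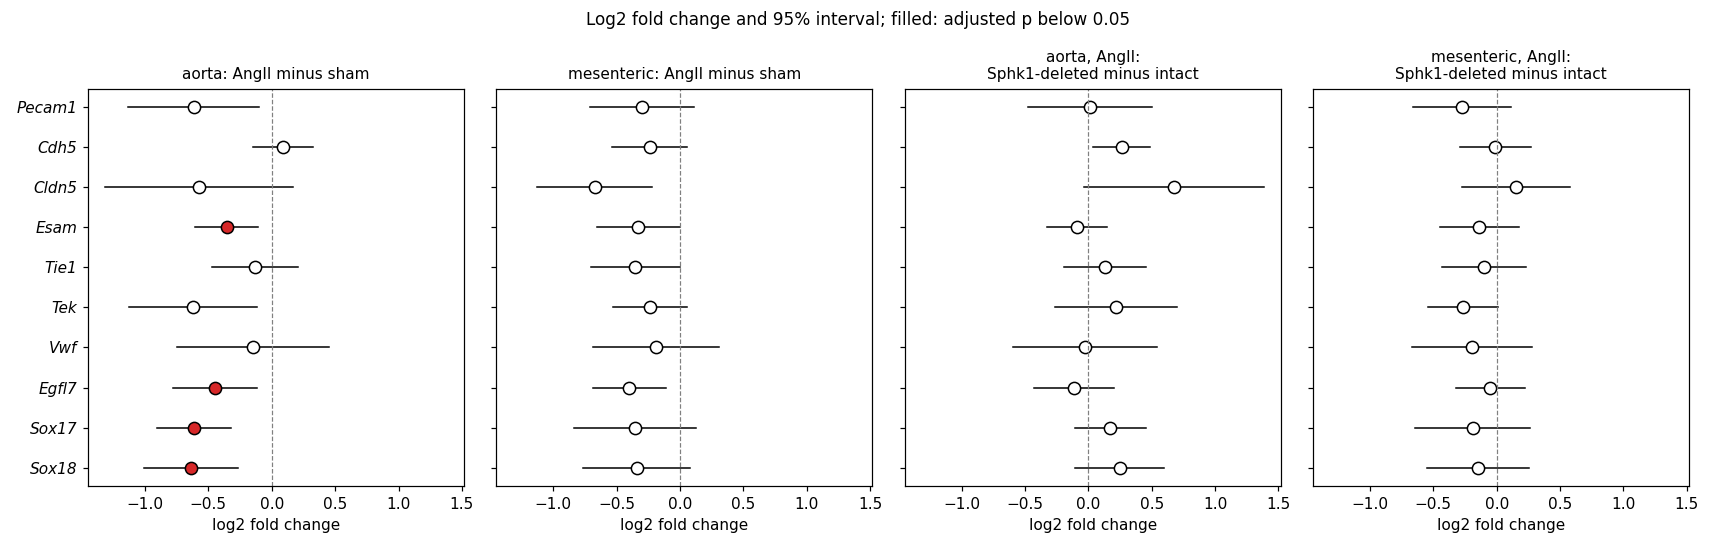
Log2 fold change (points, filled where the edgeR adjusted p was below 0.05) and 95% interval (lines) of each gene for AngII against sham and for SMC KO-Sphk1 against WTf/f under AngII, in each tissue. The 4 filled points, Esam, Egfl7, Sox17 and Sox18, are in the aortic AngII panel, left of 0.

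The 4 calls in the aorta differed in firmness. Sox17 and Sox18 were called with any of the 13 aortic libraries left out. Without WTf/f AngII replicate 2, or without sham replicate 1, 2 or 3, 2 of the 10 genes were called lower. With the mean of the lymphoid or of the smooth muscle genes as a covariate 1 of the 10 was called, Sox17. DESeq2 called 6, adding Pecam1 and Tek. The share of all genes called is not given for DESeq2, the covariate fits or the fits with a library left out. These counts thus do not show whether the 10 genes gained or lost calls more than other genes.

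Marker genes of other cell types were also called in the same aortas, which does not tell cell number from RNA per cell. Of 10 smooth muscle genes 3 were called lower, among them the myosin heavy chain Myh11 with a log2 fold change of -0.62 ± 0.20, and the summed level of the list ran from 33810 to 41390 CPM in sham and from 19720 to 38160 CPM in AngII libraries. Fibroblast genes were called higher in 5 of 10 and lower in 1 of 10, with Col1a1, a fibrillar collagen chain, at 2.42 ± 0.23, and macrophage genes were called higher in 9 of 10. No defining gene of these lists was at 0 in all 26 libraries. Of these lists only the smooth muscle genes served as a covariate, and the fibroblast and macrophage genes did not. The part of these lists in the lower Sox17, Sox18, Esam and Egfl7 was not tested further. The lymphoid genes, the other covariate named above for these calls, summed to only 1.40 to 7.91 CPM over the aortic libraries.

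The remaining endothelial genes did not share 1 direction in the aorta. Of the 20 other endothelial genes 4 were called higher and 2 lower, with a median of 0.02. Flt1 rose by 0.59 ± 0.12 (adjusted p = 0.002591) and Eng, a transforming growth factor beta co-receptor, by 0.45 ± 0.09 (0.001564). The summed level of the 20 was 791 to 848.9 CPM in sham and 777.2 to 928 CPM in AngII aortas, so these groups overlapped.

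Among the genes that work beside the members, calls went in both directions. Of 15 further junction genes tested 2 were called higher and 2 lower. The gap junction protein Gja1 had a log2 fold change of 0.79 ± 0.14 (adjusted p = 0.0009296), and the junctional adhesion molecules Jam3 and F11r had -0.45 ± 0.06 and -0.40 ± 0.07. In the angiopoietin pathway 2 of 8 were called higher, the matrix protein Svep1 at 0.74 ± 0.17 and the Tek adaptor Dok2 at 0.45 ± 0.15, and 1 lower, the adaptor Grb14 at -0.61 ± 0.12. Of 11 genes of Weibel-Palade bodies and haemostasis tested 3 were called higher, including the plasminogen activator Plat at 0.68 ± 0.15 and the coagulation inhibitor Tfpi at 0.38 ± 0.10. The Rab27a gene, whose product acts in granule release, was the 1 called lower, at -0.40 ± 0.11.

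Among 16 other endothelial transcription factors 4 were called higher and 3 lower after AngII, with a median of -0.01. The 3 with the smallest adjusted p were all higher. Klf2, a factor induced by laminar flow, was at 1.15 ± 0.21 (adjusted p = 0.00153), followed by Klf4 at 0.69 ± 0.12 and the ETS factor Elk3 at 0.64 ± 0.08. Lymphatic genes were called higher in 6 of 8, for example the receptor Flt4 at 0.96 ± 0.25. Capillary and venous genes were called higher in 2 of 12, the apelin receptor Aplnr and the homeobox gene Meox2.

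In mesenteric arteries the 10 genes were lower on average after AngII, but none passed the test. There 0.183% of 17513 genes tested were called, all of them higher. All 10 had negative log2 fold changes, with a median of -0.34 against 0.00 for all genes tested. None of the 10 was called by edgeR, DESeq2 or limma voom, and 4 had an unadjusted edgeR p under 0.05: Cldn5, Egfl7, Esam and Tie1. The share of all genes at that unadjusted level is not given. Other lists also had 1 prevailing sign there, with 0 calls in each: 18 of the 20 other endothelial genes were negative (median -0.25), and 10 of 10 macrophage genes (median 0.90) and 10 of 10 lymphoid genes (median 1.66) were positive. Summed macrophage levels were 229.4 to 459.1 CPM in sham and 326.5 to 907.5 CPM in AngII libraries, and lymphoid levels 9.72 to 16.7 and 7.76 to 145.1 CPM. The lymphoid medians were 12.8 CPM in sham and 11.3 CPM in AngII libraries. The higher lymphoid level after AngII thus rested on 1 library, WTf/f AngII replicate 1. The part of these cell types in the levels of the 10 genes was not tested.

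Cldn5 had the largest shift there, from 211, 211, 300 and 181 CPM in sham to 161, 123.7, 152.2 and 130.3 CPM after AngII, a log2 fold change of -0.67 ± 0.21 (adjusted p = 0.2777). Egfl7 went from 147, 142.5, 185.2 and 162.3 CPM to 123.9, 107.2, 126.9 and 126 CPM, -0.40 ± 0.13 (0.316). Tie1 was at 200.7, 185.6, 227.5 and 209 CPM after AngII, -0.35 ± 0.16 (0.4673). In these 3 genes the AngII libraries lay below all sham libraries, which 4.62% of expressed genes also did, and the remaining 7 overlapped.

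Of the genes that fell in the aorta, Esam and Egfl7 had mesenteric log2 fold changes of -0.33 ± 0.15 and -0.40 ± 0.13, near their aortic values. Sox17 was at 54.99, 78.99, 86.1 and 66.0 CPM in sham and 62.4, 39.8, 74.8 and 46.8 CPM after AngII, with a log2 fold change of -0.36 ± 0.22 (adjusted p = 0.587). Sox18 was at 92.0, 98.7, 83.2 and 105.1 CPM in sham and 70.5, 60.5, 104.1 and 64.2 CPM after AngII, -0.34 ± 0.20 (0.5556). In both genes replicate 3 of the AngII group stood inside the sham range, and that library was the highest of its group for 8 of the 10 genes. Replicate 2 was the lowest of the group for 8 of the 10.

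Whether the tissues responded differently was tested directly. For the difference of the AngII effect 2.34% of 18520 genes were called, 1.66% as lower in mesenteric arteries, and 0 of the 10 by edgeR, 0 with an unadjusted p under 0.05, and 0 by DESeq2 and by limma voom. The estimates ran from -0.34 ± 0.18 for Cdh5 (adjusted p = 0.3946), lower in mesenteric arteries, to 0.37 ± 0.28 for Tek (0.5856). The intervals were wide: for Sox17 the difference of 0.24 had a 95% interval from -0.32 to 0.80. Among the endothelial and transcription factor lists Flt1, Elk3 and Klf2 did differ, Flt1 by -0.68 ± 0.17, Elk3 by -0.72 ± 0.15 and Klf2 by -1.35 ± 0.30, all lower in mesenteric arteries relative to the aorta.

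The deletion of Sphk1 in smooth muscle was not accompanied by a called change in any of the 10 genes. In the aorta 0.00593% of 16863 genes were called between SMC KO-Sphk1 and WTf/f mice under AngII, which is 1 gene, Sphk1. Of the 10 genes 0 were called by edgeR, DESeq2 and limma voom. At an unadjusted edgeR p under 0.05 there was 1, Cdh5, and the share of all genes at that level is not given. The 5 SMC KO-Sphk1 aortas held 112.5, 123, 103.9, 90.9 and 98.4 CPM of Cdh5, a log2 difference of 0.26 ± 0.11 (adjusted p = 0.9814) with a 95% interval from 0.04 to 0.49. For 3 of the 5 libraries the level was above all 4 WTf/f AngII libraries.

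Cldn5 had the largest estimate, 0.67 ± 0.32 (adjusted p = 0.9814), with 33.4, 33.9, 37.5, 23.7 and 22.6 CPM in the deleted strain. Its interval ran from -0.03 to 1.38, and 3 of the 5 libraries lay above all WTf/f AngII libraries. Sox17 was at 10.7, 11.8, 13.1, 7.60 and 9.96 CPM, a difference of 0.17 with an interval from -0.11 to 0.45, and Esam differed by -0.09 with an interval from -0.32 to 0.15. All 10 genes overlapped between the strains, as did most genes. Of 14367 expressed genes 0.41% lay wholly above and 0.46% wholly below in the deleted strain. Replicate 3 was the highest of the deleted group for 8 of the 10 genes, and replicates 4 and 5 shared the lowest values.

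In mesenteric arteries 0.00571% of 17513 genes were called for the deletion, again only Sphk1, and 0 of the 10 by edgeR, DESeq2 and limma voom, with 0 at an unadjusted edgeR p under 0.05. The median difference of the 10 genes was -0.14, and the largest were Pecam1 at -0.27 ± 0.18 (adjusted p = 0.7977) and Tek at -0.26 ± 0.13 (0.7977). Mesenteric SMC KO-Sphk1 replicate 4 was the lowest of its group for all 10 genes, with Pecam1 at 689.1 CPM against 963.8 to 1296 in the others. That library also had the highest summed smooth muscle level of the 13 mesenteric libraries, 50470 CPM, and the lowest summed level of the 20 other endothelial genes, 1631 CPM. Without it the count of called genes among the 10 was still 0. The difference of the deletion's effect between tissues gave 0 calls in all genes tested, and 0 of the 10 had an unadjusted edgeR p under 0.05.

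Deleted mice given AngII were also compared with WTf/f sham mice, a contrast that combines infusion and genotype and shares its sham libraries with the AngII contrast. In the aorta 30.8% of genes were called, 16.6% higher and 14.2% lower. Of the 10 genes 3 were called lower and 1 higher. The lower ones were Egfl7 at -0.56 ± 0.15 (edgeR, adjusted p = 0.009688), Esam at -0.45 ± 0.11 (0.006718) and Sox17 at -0.44 ± 0.13 (0.01791). Sox18, at -0.39 ± 0.16 (0.08341), did not pass.

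Cdh5 was the higher one, at 0.35 ± 0.11 (adjusted p = 0.02073), and its 5 libraries, from 90.9 to 123 CPM, lay above the sham range of 73.0 to 86.7 CPM. Egfl7 and Esam lay wholly below the sham range. Of 14367 expressed genes 19.1% lay wholly above the sham range in this contrast and 15.9% wholly below. The call of Cdh5 was lost without SMC KO-Sphk1 replicate 2, without sham replicate 2, with libraries scaled by size alone, and with the other endothelial, adipocyte, lymphoid or smooth muscle covariate. With the lymphoid covariate 0 genes were called lower. Without SMC KO-Sphk1 replicate 3, or without WTf/f AngII replicate 4, 5 genes were called lower.

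In mesenteric arteries the same contrast called 0.708% of genes, 0.457% as higher and 0.251% as lower. None of the 10 was called by edgeR, although 8 had an unadjusted p under 0.05. DESeq2 called 4 lower and limma voom 2. The share of all genes at that unadjusted level, or called by DESeq2 or limma voom in this contrast, is not given. All 10 estimates were negative, with a median of -0.48, from -0.58 ± 0.18 for Pecam1 (adjusted p = 0.1371) to -0.25 ± 0.13 for Cdh5 (0.3087). Beside them, the 20 other endothelial genes had a median of -0.32 with 2 positive and 1 called lower, while 10 of 10 macrophage genes (median 1.80) and 10 of 10 lymphoid genes (median 3.52) were positive with 0 called in either list. Macrophage genes summed to 343.4 to 2582 CPM and lymphoid genes to 12.1 to 595.3 CPM in the deleted group, and their part was not tested. For Tek, with the smallest adjusted p, the 5 libraries held 170.8, 168.2, 127.3, 102.8 and 151.9 CPM against 197.8 to 212.5 in sham, a log2 difference of -0.50 ± 0.13 (0.08986). In 6 of the 10 genes the groups did not overlap, against 4.24% of expressed genes with the deleted group below.

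The balance among the 10 genes was described by subtracting from the log2 CPM of each gene the mean of the other 9 in that library. In the aorta Cdh5 stood 0.50 above the other genes in sham mice (0.29 to 0.60 over 4 libraries), 1.08 in WTf/f mice given AngII (0.87 to 1.36) and 1.20 in SMC KO-Sphk1 mice given AngII (0.82 to 1.42). Tie1 had a smaller difference of the same sign, at -0.10, 0.24 and 0.17, and the sham range did not overlap either AngII group for these 2 genes. A relative level also rises when the other 9 genes fall. In WTf/f aortas the AngII log2 fold changes of Cdh5 and Tie1 themselves were 0.09 and -0.13, neither called. The median of the 10 genes was -0.51. In the deleted strain against sham Cdh5 itself was called higher, at 0.35, and Tie1 was not called. In mesenteric arteries Cdh5 was 0.30, 0.41 and 0.54 above the others in the 3 groups, and the groups overlapped.

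The tissues differed in balance as well. Cldn5 was closer to the other genes in mesenteric sham libraries, at -0.23 (-0.52 to 0.09), than in aortic sham libraries, at -1.24 (-1.47 to -0.99). Tek went the other way, from 0.20 (0.07 to 0.34) in aortic to -0.36 (-0.46 to -0.28) in mesenteric sham libraries. The ranges of the tissues did not overlap for either gene. Nor did they for Pecam1, at 3.31 (3.25 to 3.39) in aortic and 2.92 (2.67 to 3.15) in mesenteric sham libraries. Esam, at 0.05 (-0.01 to 0.12) and -0.39 (-0.54 to -0.17), did not overlap either. For the remaining members the sham ranges overlapped, and no share over other genes is given. These relative levels are a description and carry no test.

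**Figure D4:**
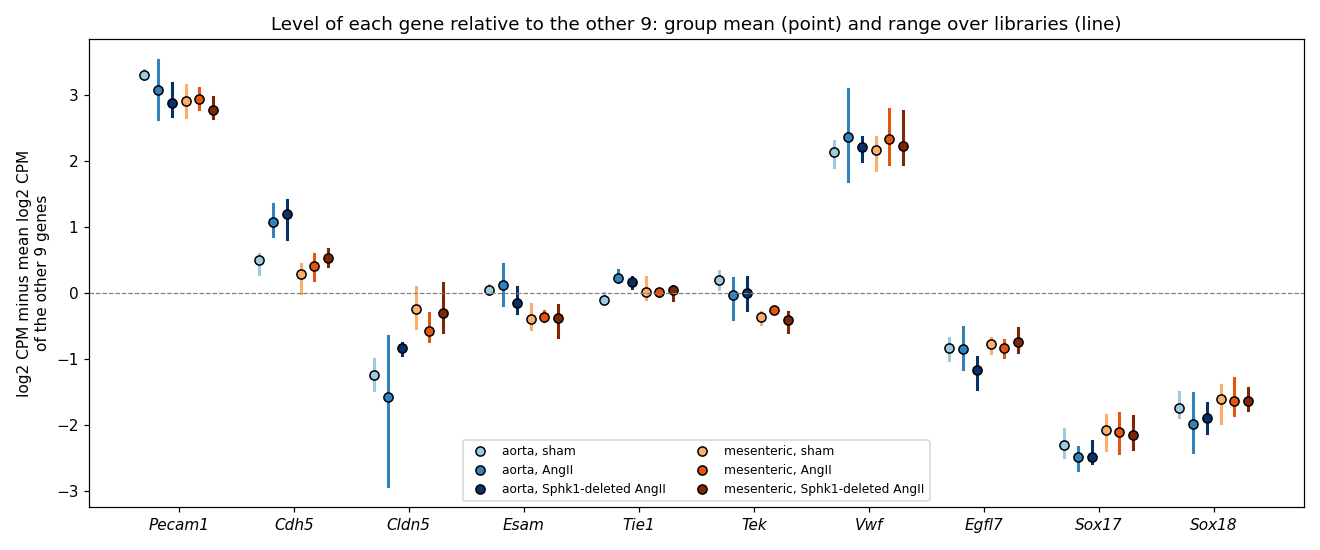
Log2 CPM of each gene minus the mean log2 CPM of the other 9 genes (vertical axis), as the group mean (point) and the range over libraries (line) for the 6 groups. In the aorta Cdh5 is at 0.50 in sham and at 1.08 and 1.20 in the AngII groups, and Cldn5 lies lower in the aorta than in mesenteric arteries.

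Within groups most pairs of the 10 genes were positively correlated. After group means were subtracted, the 45 gene pairs had a median Pearson r of 0.62 over the 13 mesenteric libraries, with 44 positive, and of 0.47 over the 13 aortic libraries, with 39 positive. Over pairs of 13058 other genes the medians were 0.00 in both tissues. Without mesenteric SMC KO-Sphk1 replicate 4, an alternative chosen after seeing the data, the mesenteric median of the 10 genes was 0.29, with 33 of 45 pairs positive, so the mesenteric value rested in large part on that library. The points of each correlation share libraries and scaling, so these are descriptions. In the aorta Pecam1 and Vwf were most alike, at 0.95, and Cldn5 and Esam least, at -0.37. Cldn5 and Sox18 had the lowest median r with the other genes there, 0.24 each, and Pecam1 and Tie1 the highest, 0.71 each. In mesenteric arteries Tie1 and Egfl7 were most alike, at 0.92, and Vwf and Sox17 least, at -0.01.

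The mean of the 10 genes was also set against marker lists in the same way, again over 13 libraries a tissue. These 20 relations, 10 lists in each tissue, are descriptions without a test. For the 20 other endothelial genes in mesenteric arteries the values were Pearson r = 0.89 and Spearman rho = 0.82, and r = 0.71 without the 2 libraries farthest from the median. In the aorta r was 0.38 and rho 0.37, and r was 0.00 without the 2 farthest, so the relation there rested on those libraries. The 12 arterial endothelial genes had r = 0.83 and rho = 0.79 in the aorta and r = 0.76 and rho = 0.78 in mesenteric arteries. The smooth muscle list gave r = 0.44 and rho = 0.55 in the aorta, and r = 0.69 without the 2 farthest libraries. In mesenteric arteries it gave r = -0.31 and rho = 0.03, and r = 0.41 without the 2 farthest, SMC KO-Sphk1 replicates 3 and 4, so its sign there rested on those libraries.

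**Figure D5:**
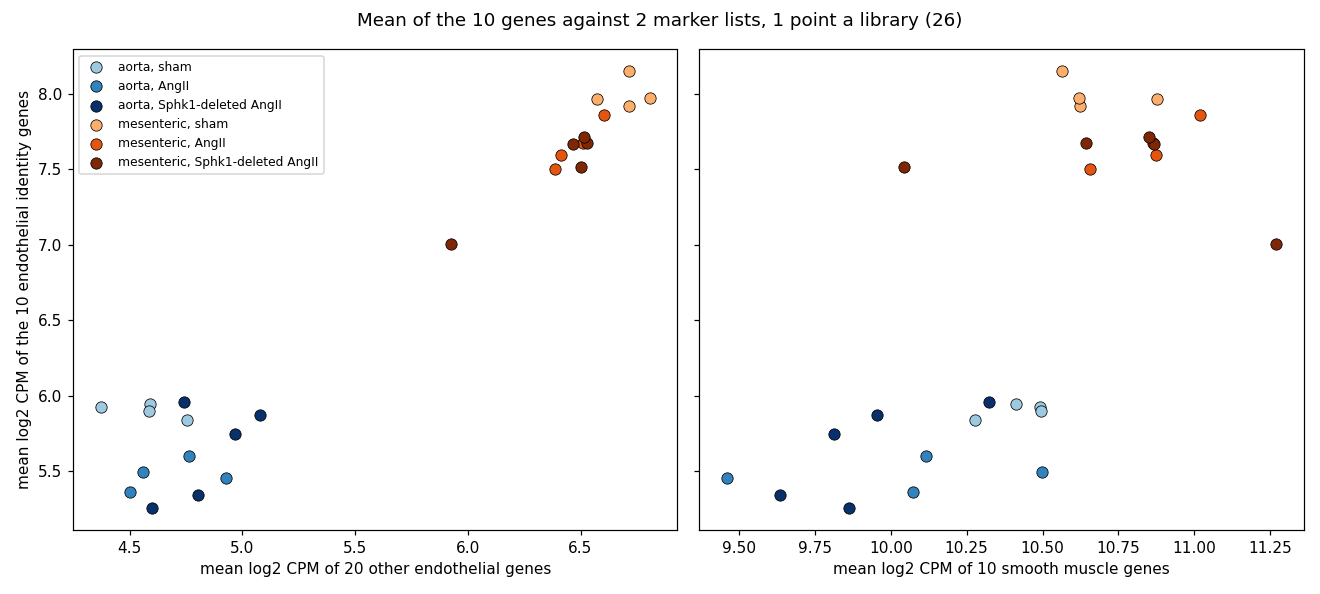
Mean log2 CPM of the 10 genes (vertical axis) against the mean log2 CPM of 20 other endothelial genes (left) and of 10 smooth muscle genes (right), 1 point for each of the 26 libraries. The tissues form separate clouds, and mesenteric SMC KO-Sphk1 replicate 4 is the lowest mesenteric point, with the other endothelial genes at 5.93 and the smooth muscle genes at 11.27.

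The genes whose pattern was closest to the mean of the 10 were taken from 13058 genes whose log2 CPM averaged 1 or more. Over all 26 libraries, where the order is set by the difference between tissues, they were led by Mmrn2, an endothelial matrix glycoprotein, with r = 0.9955, then Ccm2l, Pkn3, She and Itgb4. Within the aorta, with group means subtracted, the closest were Pkn3 at 0.97, Wscd1 at 0.96 and Gata2 at 0.95, followed by Itgb4 and Klk11. Within mesenteric arteries, with SMC KO-Sphk1 replicate 4 included, they were Acvrl1, a bone morphogenetic protein receptor of endothelium, at 0.99, Mmrn2 at 0.98 and Fgd5 at 0.96, followed by Hspa12b and Gata2. Gata2 and Mmrn2 were among the 10 closest in both tissues.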

How the data were processed

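Per the labels, mRNA libraries (NEBNext Ultra II Directional) were read as paired ends of 150 bases. The deposited values are whole-number counts per Ensembl gene, which per the submitters' processing notes came from cutadapt, HISAT2 and HTSeq on GRCm39; versions, annotation and strand setting are not given in the sources used here. All 5 summary lines of the counting were left out: no feature (6.64 to 11.1% of records), ambiguous (1.17 to 1.61%), low quality (1.96 to 3.55%), not aligned (0.572 to 14.7%) and multiply aligned (4.82 to 12.99%). Version suffixes were removed from the mesenteric identifiers. Counts were fitted with edgeR 4.0.16 in R 4.3.3 (filterByExpr, TMM, robust quasi-likelihood F test, Benjamini-Hochberg adjustment over all genes tested): the 3 groups of a tissue together, and all 26 libraries for contrasts between tissues. Standard errors are the log2 fold change divided by the root of F. Log2 CPM carries a prior count of 2. Exon lengths and gene coordinates are from GENCODE M21 on GRCm38, not the annotation of the counting. The labels give the size of each group in mice but tie no library to a mouse, so p-values measure the spread between these samples.

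The 10 genes and the other lists were chosen with earlier results of these data known. The genes named are all 10, up to 3 called genes (or up to 2 as values) of each other list by adjusted p, and the 10 expressed genes most correlated with the mean of the 10. The fits were tested on simulated data. Of genes changed 1.5-fold, 55.2% were recovered for AngII against sham in the aorta and 26.9% in mesenteric arteries. Between the tissues in sham mice 46.3% were recovered. At 2-fold the shares were 89.6%, 73.1% and 70.1%. A missing call, above all in mesenteric arteries, thus does not show an unchanged level. Alternatives were DESeq2 1.42.0, limma 3.58.1 voom, other scaling and filters, covariates for marker lists, a replicate block and each library left out.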

Additional observations from a re-analysis of the deposited data

Results flagged for a closer look

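In 7 of 60 combinations of gene and group, 1 library stood apart from the rest of its group by Dixon's gap. Chance gives about 1 in 20, or 3 of 60, for independent combinations. These combinations share libraries, and most pairs of the 10 genes were positively correlated, so no excess over chance can be read from the 7. Mesenteric SMC KO-Sphk1 replicate 4 was low for Cdh5, at 183.5 CPM, and for Sox18, at 42.81 CPM. Mesenteric sham replicate 3 was high for Tie1, at 330.1 CPM, and for Esam, at 255.7 CPM. Mesenteric sham replicate 2 was low for Vwf, at 804.8 CPM. Mesenteric WTf/f AngII replicate 2 was low for Egfl7, at 107.2 CPM. In the aorta WTf/f AngII replicate 4 was high for Sox17, at 10.44 CPM, and still below all 4 sham libraries.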

How the results depend on the processing

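Between tissues all 10 genes were called higher with any library left out (10 to 10) and under each alternative but 1. With the mean of the 20 other endothelial genes as a covariate 0 of the 10 were called in each of the 3 tissue comparisons, and 4 estimates changed sign: Cdh5 to -0.060 in sham, -0.082 under AngII and -0.16 in the deleted strain, and Tek to -0.15 in sham. The summed level of that list did not overlap between tissues, at most 979.5 CPM in the aorta and at least 1631 in mesenteric arteries.

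For AngII against sham in the aorta the number called lower was 4, 2 to 5 with single libraries left out, and 1 with either the lymphoid or the smooth muscle covariate. Esam lost its call without WTf/f AngII replicate 1, 2 or 3 or sham replicate 1, 2 or 3 (adjusted p up to 0.09329), and Egfl7 without any sham library, WTf/f AngII replicate 2 or 4 or SMC KO-Sphk1 replicate 3 (up to 0.1174). Sox17 was called under every alternative run, with adjusted p from 0.0003762 to 0.02891. Scaling by library size alone moved the median of all aortic genes by -0.13 for AngII and by -0.11 for the deleted strain against sham, and the split of higher and lower calls for AngII from 2475 and 1826 to 1747 and 3729. For the deleted strain against sham the split moved from 2796 and 2401 to 2192 and 4075. In the tissue comparisons the median of all genes became 0.16 under AngII and 0.20 in the deleted strain, with splits from 3939 and 3544 to 5114 and 2471 and from 4955 and 3857 to 6715 and 2648.

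For the deleted strain against sham in the aorta the number called higher was 1, 0 to 1 with single libraries left out, and 0 with library size alone or the other endothelial, adipocyte, lymphoid or smooth muscle covariate. The number called lower was 3, 2 to 5 with single libraries left out, 5 with library size alone and with limma voom, 1 with the adipocyte or smooth muscle covariate and 0 with the lymphoid covariate. In mesenteric arteries 0 became 4 with DESeq2, 2 with limma voom and 2 with the smooth muscle covariate. The share of all genes called in those fits of this contrast is not given. For another contrast, AngII against sham, edgeR gave 32 higher and 0 lower calls over all mesenteric genes. DESeq2 gave 238 and 71 there, and limma voom 197 and 53. The cause of these changes was not tested, and counts over all genes are given only for the settings printed here.

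Replicate numbers were not used to pair the samples. Deviations of same-numbered libraries correlated from -0.36 to 0.36 over the pairings tried, and no pairing had every pair above 0.1. Between tissues r was -0.11 to 0.20 in sham, 0.04 to 0.16 in WTf/f AngII and -0.12 to 0.08 in SMC KO-Sphk1 mice. The same-numbered library was the closest match for 2 of 4, 3 of 4 and 2 of 5 libraries. Whether the tissues share mice is not known, and the main tissue contrasts treat all libraries as independent. With the replicate number as a block 4 genes were called lower for AngII in the aorta, as without it. Against sham in the deleted strain 1 was called higher and 3 lower, as without it, but Sox17 lost its call and Sox18 gained one. The other counts of calls among the 10 genes were also unchanged by the block.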
